A study of Mus musculus with 8 samples.

Results

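Plasminogen activators, their cell-surface receptor and serpin-type inhibitors were examined in fibroblasts cultured from mouse embryos (MEFs), with and without the transcription factor gene Cebpg. The group was given as 6 genes, Plau, Plat, Plaur, Serpinb2, Serpine2 and Serpinf1, and its members are all probe sets that the platform annotation assigns to one of these genes alone. This rule found 8 of 45037 probe sets, standing for 5 of the 6 genes among 18193 genes in all. Plau, Plat and Serpinf1 had 2 probe sets each, and Plaur and Serpinb2 had 1 each. Serpine2 (protease nexin 1) was not analysed here.

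The 8 samples were 4 WT and 4 Cebpg-/- cultures, all of strain C57BL/6. The fibroblasts came from embryos of day E13.5, were grown in DMEM with 10% FBS and antibiotics, and were plated at equal density at passage 3 for collection 48 hours later. No sample received a further treatment. Total RNA of each was hybridised to 1 Affymetrix array, and each value is a log2 RMA expression value, so a difference of 1 is a doubling. The labels call the samples biological replicates without saying whether each came from its own embryo; a p-value here therefore reflects only how these samples vary, which may be technical, and the number of arrays limits the precision.

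Plasminogen is a circulating zymogen, and the urokinase (Plau) and tissue-type (Plat) activators are serine proteases that cut it to plasmin, which dissolves fibrin and degrades matrix proteins. The urokinase receptor (Plaur), a GPI-anchored protein, holds urokinase at the cell surface. Serpins inhibit serine proteases by offering a reactive loop that traps the enzyme: Serpinb2 encodes plasminogen activator inhibitor 2, while Serpinf1 encodes pigment epithelium-derived factor, a serpin fold protein that does not inhibit proteases. Cebpg encodes C/EBPγ, a basic leucine zipper factor that pairs with other such factors, and with ATF4 it can bind composite C/EBP-ATF sites.

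The sequences before the transcription starts of Plaur, Serpinb2 and Serpinf1 are shown, the members for which a window was available. Plaur and Serpinb2 were higher in Cebpg-/- while Serpinf1 passed no test. The sequences are the 250 bases upstream of the RefSeq start, 5′ to 3′ on the gene's strand, in build GRCm38.p6. Plaur lies at chr7:24462233-24462482 (plus strand), Serpinb2 at chr1:107511173-107511422 (plus strand) and Serpinf1 at chr11:75422624-75422873 (minus strand). Capitals mark matches to the AP-1 motif TGANTCA or the C/EBP-ATF composite motif TGATGNAAN.
Plaur: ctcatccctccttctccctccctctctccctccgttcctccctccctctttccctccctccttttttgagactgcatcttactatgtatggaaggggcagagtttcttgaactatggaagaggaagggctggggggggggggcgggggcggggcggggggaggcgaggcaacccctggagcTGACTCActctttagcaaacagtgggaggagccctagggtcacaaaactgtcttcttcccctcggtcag
Serpinb2: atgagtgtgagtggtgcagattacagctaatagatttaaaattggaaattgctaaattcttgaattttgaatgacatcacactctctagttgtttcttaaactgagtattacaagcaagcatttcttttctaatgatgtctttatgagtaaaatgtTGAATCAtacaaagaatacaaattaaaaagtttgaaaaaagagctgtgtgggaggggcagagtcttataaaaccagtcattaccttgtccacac
Serpinf1: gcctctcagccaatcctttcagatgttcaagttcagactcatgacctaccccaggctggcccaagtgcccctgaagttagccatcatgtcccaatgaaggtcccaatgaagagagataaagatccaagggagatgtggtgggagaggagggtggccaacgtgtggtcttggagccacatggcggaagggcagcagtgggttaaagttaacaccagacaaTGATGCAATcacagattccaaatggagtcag
A second RefSeq start of Serpinb2 lies downstream and is not printed, and the windows of Plau and Plat were not analysed here.

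Both strands were searched. The AP-1 motif matched as TGACTCA 69 to 63 bases before the Plaur start and as TGAATCA 94 to 88 bases before the Serpinb2 start, and 6.75% of 32841 windows of the same length hold a match. The composite motif matched in Serpinf1 alone of these 3, as TGATGCAAT 31 to 23 bases before its start, and 3.43% of all windows hold it. The looser C/EBP motif TTNNGNAA matched once in the Plaur window and at 2 places in the Serpinb2 window, and 36.9% of windows hold it. A match is a run of letters, not a shown binding site, and the AP-1 and composite matches do not overlap another of these motifs.

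The targeted gene was measured first. Of 3 Cebpg probe sets, 1451639_at fell from 6.31 ± 0.07 in WT to 5.53 ± 0.12 in Cebpg-/- (SD, n = 4; limma, adjusted p = 0.000593), and the others did not pass. The brightest, 1425262_at, read 6.78 in WT and 6.60 in Cebpg-/- (limma, adjusted p = 0.275). In the other direction, 1425261_at was 0.26 higher in Cebpg-/- with groups that did not overlap (limma, adjusted p = 0.0942). Where the deletion lies relative to the probe sets was not analysed here, and one outside it checks nothing. All 12 fibroblast markers examined lay above 2.73, the median of all values and the level under which a value is called dim here. Their mean was 9.91 to 10.16 in WT and 9.63 to 9.94 in Cebpg-/-, a difference of -0.31 (two-sided exact permutation test, p = 0.0571). Of the 12, 6 were lower in Cebpg-/-, Col1a1 by the most (-1.05), where 3.99% of all genes were lower. Above the dim level 18.3% of all genes passed in either direction. Only 2 of the 12 changes were above 0, among them Lum (1.07), which did not pass (limma, adjusted p = 0.1035 over genes). The mean of 8 endothelial markers was dim on every array (2.58 to 2.69), but 2 of the 8 lay above the dim level. They were Egfl7 (5.30 in WT and 5.07 in Cebpg-/-) and Kdr (3.93 and 4.10).

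Macrophage and leukocyte markers differed between arrays. The mean of 20 macrophage and leukocyte markers read 3.55, 5.33, 5.25 and 5.46 on WT replicates 1 to 4 and 7.55, 4.83, 6.81 and 6.41 on Cebpg-/- replicates 1 to 4. WT replicate 1 was the lowest and Cebpg-/- replicate 1 the highest, and Cebpg-/- replicate 2 lay below 3 of the 4 WT arrays. The 2 genotypes differed by 1.50 (two-sided exact permutation test over arrays, p = 0.114, where 0.0286 is the smallest p that 4 against 4 allows), and by 1.05 to 2.02 without any single array. It was lowest without WT replicate 1 (exact p = 0.200) and highest without Cebpg-/- replicate 2, the only one of these 8 with exact p under 0.05 (0.0286). All 20 changes were above 0, between 0.87 and 1.99, and 1 passed (Cd14, limma, adjusted p = 0.0316 over genes). In these bulk samples more cells of a type and more RNA per cell cannot be told apart.

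Markers of other cells were also read. The mean of 8 mast cell and basophil markers was 2.40 to 2.41 in WT and 2.63 to 2.78 in Cebpg-/-, but only 2 of the 8 changes were above 0 and 1 marker rose (Mcpt8, 2.76). The mean of 5 platelet markers was 3.66 to 3.94 and 4.25 to 4.63, but again only 2 of the 5 changes were above 0, those of the 2 markers that rose (Ppbp, 1.96, and Pf4, 1.28). The higher means of these lists come mainly from these 3 genes, and their part in the members' results was not tested. Of 7 epithelial and keratinocyte markers 1 was lower (Epcam), with means of 2.84 to 3.18 and 2.87 to 3.13.

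Across the 8 member probe sets, 2 were higher and 1 was lower in Cebpg-/- (limma, Benjamini-Hochberg over all 45037 probe sets, threshold 0.05). Over all probe sets 4.82% were higher, 2.78% lower and 7.6% either. Serpinb2 and Plaur rose and the brighter Plat probe set fell, while Plau and Serpinf1 passed at neither of their probe sets. In 4 of the 8 the groups did not overlap, where 15% of all probe sets were so separated.

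Plat, the tissue-type activator, fell to 61.3% of its WT level. Probe set 1415806_at read 7.62, 7.42, 7.62 and 7.74 on WT replicates 1 to 4 and 6.69, 7.18, 6.79 and 6.90 on Cebpg-/- replicates 1 to 4. All Cebpg-/- values lay below all WT values, with Cebpg-/- replicate 2 the closest at a gap of 0.23 to WT replicate 2. The means were 7.60 ± 0.14 and 6.89 ± 0.21 (SD, n = 4), a change of -0.71 ± 0.11 (SE; limma, adjusted p = 0.00539) with a 95% confidence interval of -0.95 to -0.46. The second probe set, 1458553_at, was dim in both genotypes, at 2.26 ± 0.08 and 1.98 ± 0.17. Its change of -0.28 did not pass (limma, adjusted p = 0.0833), its groups did not overlap either, by 0.05, and no fold is given for a dim probe set.

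Plau, the urokinase-type activator, gave no call. Probe set 1422139_at read 4.88, 4.52, 5.07 and 5.29 on WT replicates 1 to 4 and 5.17, 5.03, 5.47 and 5.22 on Cebpg-/- replicates 1 to 4. The groups overlapped, with WT replicate 4 above all Cebpg-/- arrays but replicate 3. The change was 0.28 ± 0.15 (SE; limma, adjusted p = 0.304), with an interval of -0.06 to 0.62, so a rise of up to about 0.62 on the log2 scale is within it. The dimmer 1422138_at ran from 3.26 to 4.00 in WT and from 3.55 to 3.98 in Cebpg-/-, with a change of 0.06 (limma, adjusted p = 0.846; interval -0.27 to 0.40).

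The changes of the 2 activators were set against each other within arrays. The value of Plat minus that of Plau, at the brighter probe set of each, read 2.74, 2.89, 2.55 and 2.45 on WT replicates 1 to 4 and 1.53, 2.16, 1.32 and 1.69 on Cebpg-/- replicates 1 to 4. All 4 Cebpg-/- arrays lay below all 4 WT arrays, and Plat thus changed by -0.99 relative to Plau (two-sided exact permutation test, p = 0.0286, the smallest that 4 against 4 allows). With the mean of both probe sets of each gene the difference was -0.67 (exact permutation p = 0.0286). It was -0.91 to -1.06 without any single WT array, each with p = 0.0571 (exact permutation test), and p = 0.0286 without any single Cebpg-/- array. In each of these fits the groups stayed apart. With 1 array left out 0.0286 is the smallest p possible and 0.0571 the next. This comparison was chosen after the values were seen.

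Plaur, the urokinase receptor, rose 1.44-fold. Its only probe set, 1452521_a_at, read 9.26, 9.11, 9.09 and 9.15 on WT replicates 1 to 4 and 9.84, 9.53, 9.64 and 9.68 on Cebpg-/- replicates 1 to 4. The WT values ran from 9.09 to 9.26, and the lowest Cebpg-/- value was 0.27 above the highest WT value. The means were 9.15 ± 0.08 and 9.67 ± 0.13 (SD, n = 4), a change of 0.52 ± 0.08 (SE; limma, adjusted p = 0.00417; interval 0.35 to 0.69).

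Serpinb2, which encodes plasminogen activator inhibitor 2, had the largest change of the 8, 10.7-fold. Probe set 1419082_at read 3.85, 3.49, 3.50 and 4.64 on WT replicates 1 to 4 and 7.74, 6.04, 7.40 and 7.99 on Cebpg-/- replicates 1 to 4. The groups were 1.40 apart, with WT replicate 4 the highest of its group and Cebpg-/- replicate 2 the lowest of its own. The change was 3.42 ± 0.40 (SE; limma, adjusted p = 0.00154), with an interval of 2.53 to 4.31, and the spread was wide in both genotypes (SD 0.54 and 0.87, n = 4). Without Cebpg-/- replicate 2 the change was 3.84, and without Cebpg-/- replicate 4 it was 3.19.

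Serpinf1, which encodes pigment epithelium-derived factor, gave no call at 2 bright probe sets. Probe set 1416168_at read 11.46, 11.49, 11.55 and 11.34 on WT replicates 1 to 4 and 11.20, 11.56, 11.14 and 11.44 on Cebpg-/- replicates 1 to 4. Cebpg-/- replicate 2 was the highest of all 8 arrays and Cebpg-/- replicate 3 the lowest. The change was -0.12 ± 0.10 (SE; limma, adjusted p = 0.490; interval -0.34 to 0.09). Probe set 1453724_a_at changed by -0.15 ± 0.10 (limma, adjusted p = 0.439; interval -0.38 to 0.09), and its spread was 0.05 in WT and 0.24 in Cebpg-/- (SD, n = 4), again with Cebpg-/- replicate 2 at the top.

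**Figure D1:**
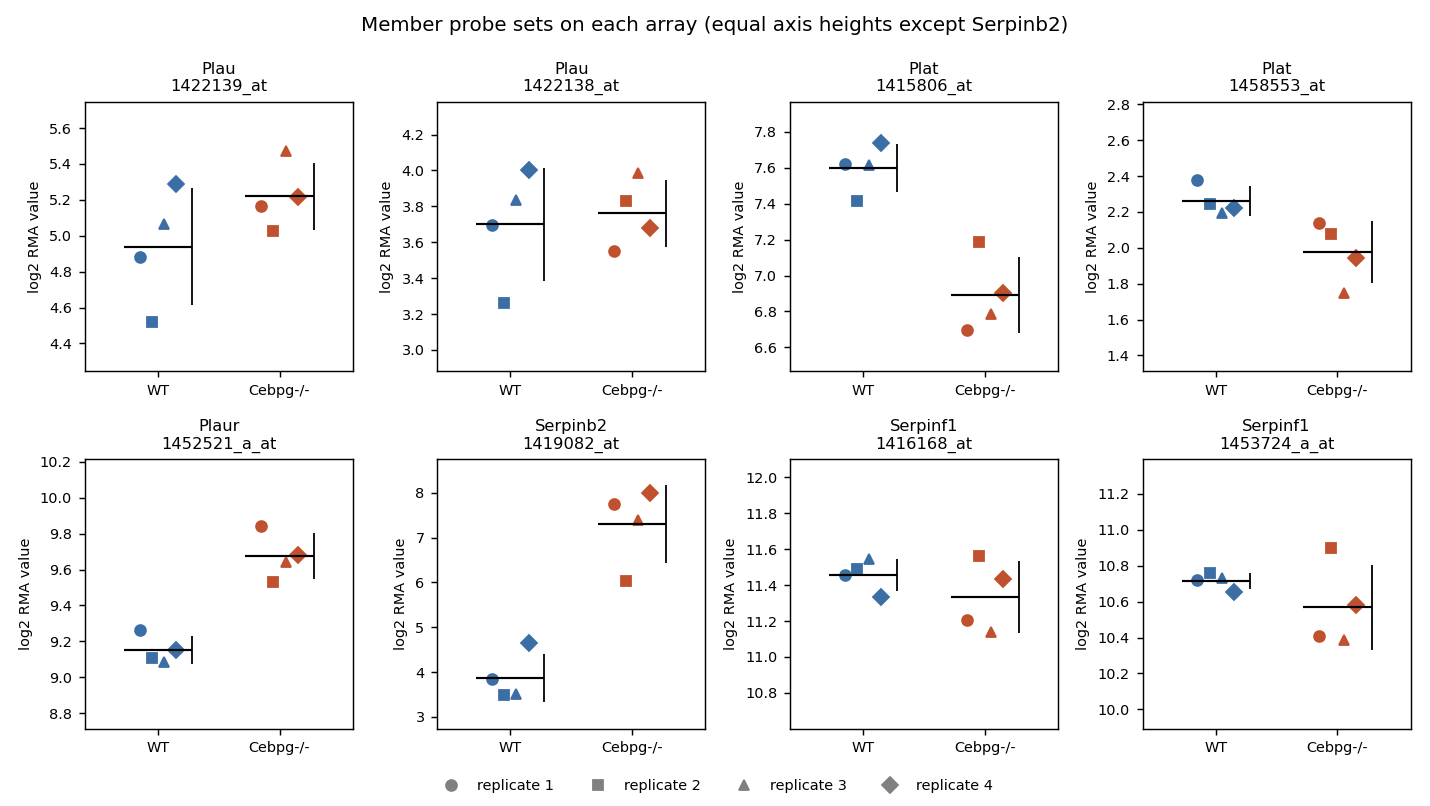
Log2 RMA value of each member probe set on the 8 arrays, with WT in blue and Cebpg-/- in red, a symbol for each replicate number, the group mean as a horizontal line and 1 SD each way as a vertical line. Serpinb2 runs from 3.49 to 4.64 in WT and from 6.04 to 7.99 in Cebpg-/-, Plaur and Plat are also apart, and Plau and Serpinf1 overlap.

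**Figure D2:**
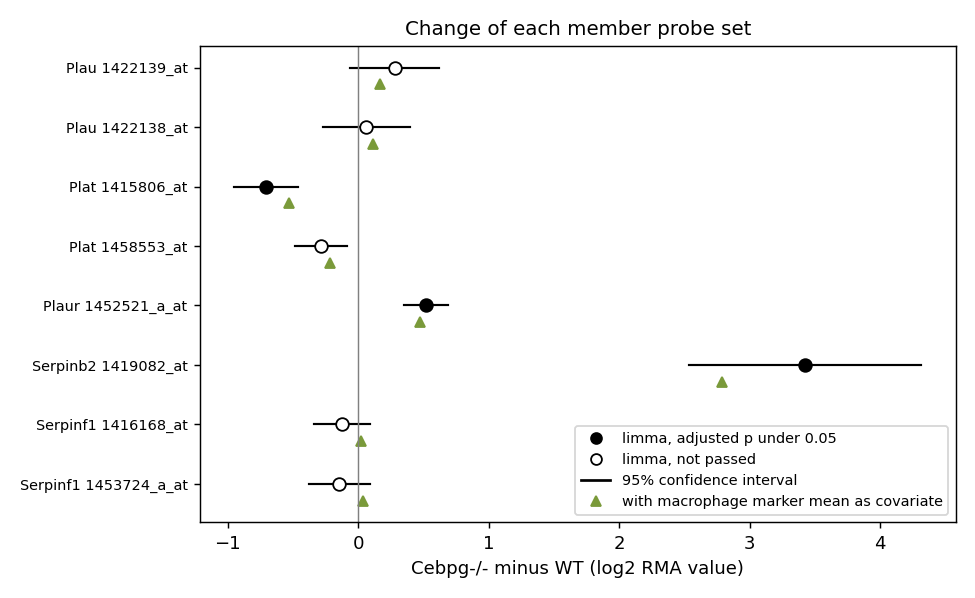
Change of each member probe set (Cebpg-/- minus WT, log2 RMA value) as a circle with its 95% confidence interval, filled where limma's adjusted p is under 0.05, and as a triangle with the macrophage marker mean as a covariate. Filled circles are Plat 1415806_at at -0.71, Plaur at 0.52 and Serpinb2 at 3.42.

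The macrophage marker mean moved with part of these values. Within Cebpg-/-, replicate 2 had the lowest marker mean together with the lowest Serpinb2 and Plaur and the highest Plat values. Within WT, replicate 1 had the lowest marker mean together with the highest Plaur and the second highest Serpinb2 value. Over 8 arrays, after each genotype's mean was subtracted, Serpinb2 correlated with the marker mean at 0.60, Plaur at 0.32 and Plau at 0.29. For Plat the correlation was -0.68 and for Serpinf1 -0.64 (Pearson, brightest probe set of each member, no p given). With the marker mean as a covariate, which is higher in 3 Cebpg-/- arrays than in any WT array and so shares much of its spread with genotype, the change of Serpinb2 was 2.79 and passed (limma, adjusted p = 0.0225). Plaur (0.47, adjusted p = 0.0705) and Plat 1415806_at (-0.53, 0.0802) did not pass in that limma fit, in which 2% of all genes were called against 12.6% without the covariate. Leaving out the arrays with the lowest and the highest marker mean, WT replicate 1 and Cebpg-/- replicate 1, gave 3.27 for Serpinb2 (limma, adjusted p = 0.0303), 0.50 for Plaur (0.0232) and -0.63 for Plat (0.0623). Of all genes 2.91% were called without those arrays.

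**Figure D3:**
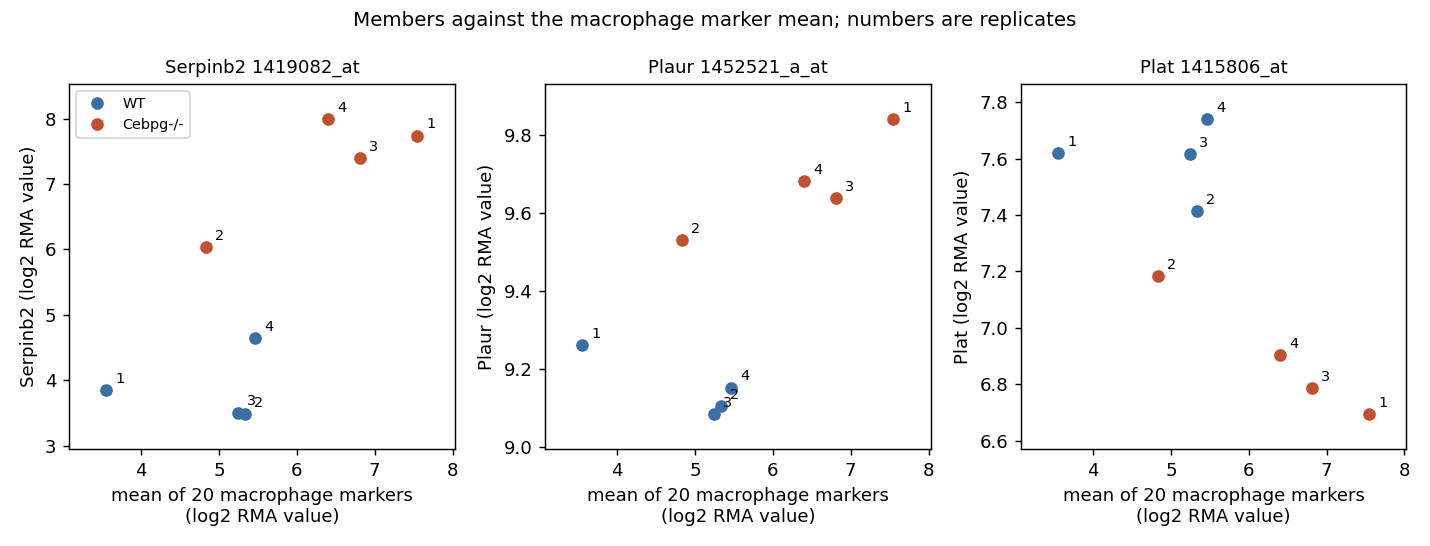
Log2 RMA values of Serpinb2, Plaur and Plat (vertical axes) against the mean of 20 macrophage markers (horizontal axis) on each array, numbered by replicate, WT in blue and Cebpg-/- in red. The marker mean runs from 3.55 to 5.46 in WT and from 4.83 to 7.55 in Cebpg-/- and so overlaps between genotypes, while the values of each of the 3 genes do not.

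The surrounding system was read from a list of 42 genes, of which 38 were measured, each by its brightest probe set. The list covers plasminogen activation, plasmin inhibition, plasminogen and urokinase binding, fibrin and the first steps of clotting. It also holds genes outside these classes, Thbd and Hgf among them. Of the 38, 5 rose and 2 fell (limma, Benjamini-Hochberg over 18193 genes), 31 passed in neither direction, and the list's median was -0.02. Some of these 31 had a dimmer probe set that passed by limma over all probe sets. Such probe sets were higher at 2 of 4 for Tfpi and at 1 of 3 each for Lrp2 and Serpini1. For F2r 1 of 2 was lower. Over all genes 8.62% rose, 3.99% fell and 12.6% did either, and the median change was 0.00. Of all called genes 68.4% were higher, a share of 56.7% after quantile normalization and 78.9% after subtracting array medians. Without the members the list gave 3 rises and 1 fall among 33 genes. Of the 38 genes 12 were dim, Plg itself (2.39 in WT, 2.28 in Cebpg-/-) and the fibrinogen chains among them, and none of those 12 passed. Above the dim level 18.3% of all genes passed, beside 7 of 26 in the list.

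Thrombomodulin (Thbd), a membrane receptor that redirects thrombin to activate protein C, rose 2.14-fold. It read 6.19, 6.50, 6.29 and 5.83 on WT replicates 1 to 4 and 7.36, 7.21, 7.32 and 7.31 on Cebpg-/- replicates 1 to 4. The Cebpg-/- values lay close together and all above WT (limma, adjusted p = 0.000769), and with the macrophage covariate the change was 1.05 (adjusted p = 0.0147, limma). Tissue factor (F3), the starter of clotting, rose 1.44-fold, from 9.39 ± 0.19 to 9.92 ± 0.12 (SD, n = 4; limma, adjusted p = 0.00913), and its change was 0.61 with the covariate (limma, adjusted p = 0.0472).

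S100a10, which with annexin A2 forms a plasminogen-binding complex at the cell surface, rose by 0.26, from 10.77 ± 0.11 to 11.03 ± 0.03 (SD, n = 4; limma, adjusted p = 0.0288). Its other probe sets did not pass over all probe sets. They were 1456642_x_at (0.19; limma, adjusted p = 0.0569) and 1439348_at (0.04; limma, adjusted p = 0.868), the latter with overlapping groups. The partner of S100a10, Anxa2, read 11.88 and 11.93 (limma, adjusted p = 0.531). S100a10 no longer passed without WT replicate 1 (adjusted p = 0.0748) or 3 (0.0561), or without Cebpg-/- replicate 1 (0.0842), 3 (0.0665) or 4 (0.0628), by limma. Hgf, hepatocyte growth factor, a plasminogen-related protein made as an inactive precursor, fell by 0.42, from 4.13 ± 0.18 to 3.72 ± 0.21 (SD, n = 4; limma, adjusted p = 0.0427), with overlapping groups, and 1 of its other two probe sets fell too (-0.57). Its call was lost without WT replicate 1 (0.117), 3 (0.110) or 4 (0.0585) and without Cebpg-/- replicate 1 (0.118), 3 (0.118) or 4 (0.0775), by limma. Of all genes 12.6% were called with every array, and 6.61%, 8.09% and 13.8% without WT replicates 1, 3 and 4. Without Cebpg-/- replicates 1, 3 and 4 the shares were 6.62%, 7.33% and 8.54%. With the macrophage covariate neither passed, S100a10 at 0.25 and Hgf at -0.22 (limma, adjusted p = 0.217 and 0.427). Among the genes that did not pass, Plgrkt, a plasminogen receptor, changed by 0.20, and Mrc2, a collagen receptor that associates with the urokinase receptor, by -0.37 (limma, adjusted p = 0.0699 and 0.0598).

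Of 38 other serpin genes listed, 25 were measured, and 17 of these were dim. Among the 25, 3 rose and 1 fell, the other 21 did not pass, the median was -0.05, and all 4 calls were among the 8 genes above the dim level. The calls made up 16% of the list, beside 12.6% of all genes (8.62% rose and 3.99% fell). Above the dim level 18.3% of all genes passed. Serpinb9b rose 1.80-fold, from 5.38 ± 0.40 to 6.23 ± 0.27 (SD, n = 4; limma, adjusted p = 0.0195). Serpinb6a, an intracellular serpin, read 10.00 to 10.08 in WT and 10.27 to 10.34 in Cebpg-/-, a rise of 0.28 (limma, adjusted p = 0.00725). Serpinb8 rose by 0.44 (limma, adjusted p = 0.0259), and its second, dim probe set rose too (0.34).

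Serpinh1, which encodes HSP47, the collagen chaperone of the endoplasmic reticulum, was the serpin that fell, by 0.28, from 11.83 ± 0.05 to 11.54 ± 0.07 (SD, n = 4; limma, adjusted p = 0.0136), and its second probe set fell by 0.40. Calls were lost without Cebpg-/- replicate 1 for Serpinb8 (limma, adjusted p = 0.0729) and Serpinb9b (0.0560), and without Cebpg-/- replicate 3 for Serpinb8 (0.0590) and Serpinb9b (0.0526). The Serpinb8 call was also lost without WT replicate 1 (0.0612) or WT replicate 3 (0.0722) in the limma fit. Of all genes 6.62% and 7.33% were called without Cebpg-/- replicates 1 and 3, against 12.6% with every array. Without WT replicates 1 and 3 the shares were 6.61% and 8.09%. With the macrophage covariate none of the 4 passed (limma, adjusted p = 0.102 for Serpinb6a, 0.200 for Serpinb8, 0.200 for Serpinb9b and 0.181 for Serpinh1); by an unadjusted p under 0.05 in that fit the 3 rises and the 1 fall passed.

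**Figure D4:**
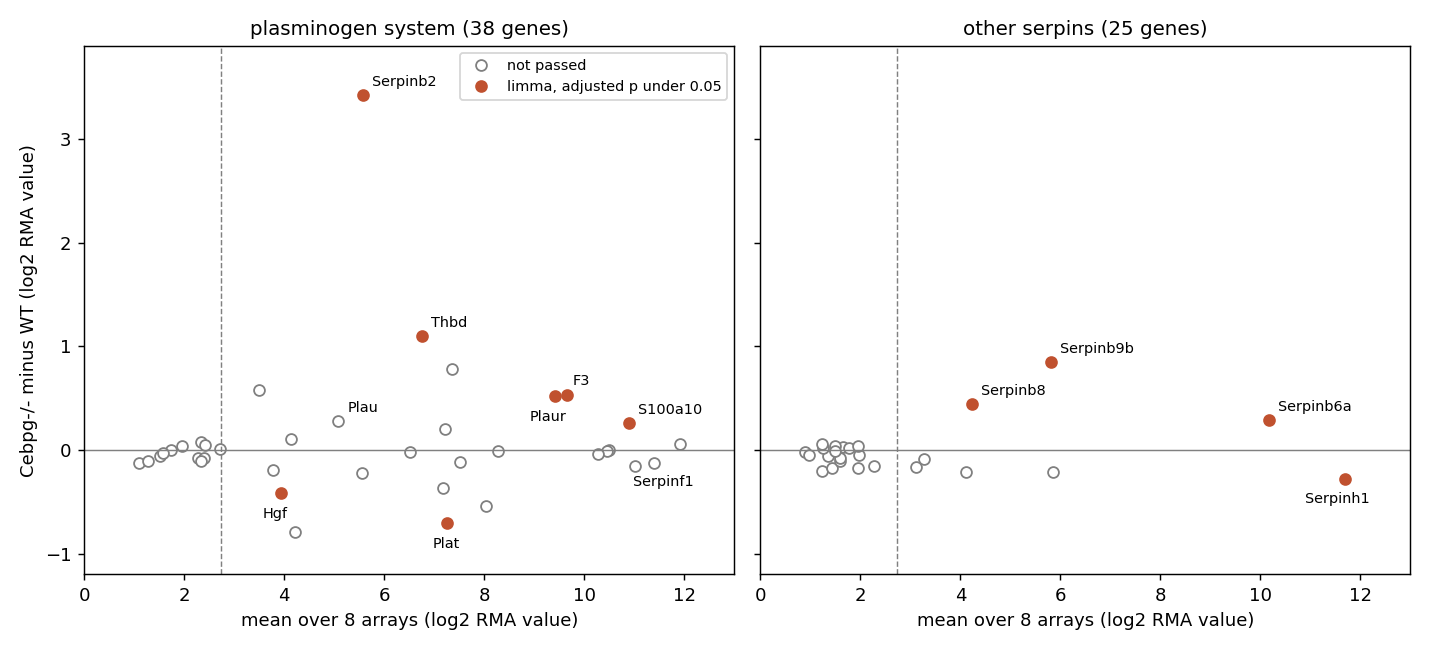
Change (Cebpg-/- minus WT, log2 RMA value) against the mean over 8 arrays for 38 plasminogen system genes (left) and 25 other serpins (right), filled where limma's adjusted p over genes is under 0.05, with a dashed line at 2.73, the median of all values. Serpinb2 stands at 3.42 and Thbd at 1.10, and the genes left of the dashed line are all open circles.

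The genes whose values followed each member most closely were named by Pearson correlation over 8 arrays after each genotype's mean was subtracted, among 11653 genes above the dim level. For Serpinb2 they were Dpf2 (0.99), Zfp623 (0.97) and Mmd (0.96), and for Plaur Tead4 (0.97), Timm17a (0.97) and Slc30a1 (0.96). For Plat they were Pgpep1 (0.99), Riok1 (0.98) and Nfil3 (0.97), for Plau Nop2 (0.98), Exosc10 (0.97) and Cc2d1a (0.96), and for Serpinf1 Gpx7 (0.98), Twist2 (0.98) and Tmem263 (0.98). These are the highest of many correlations over few arrays that share whatever sets their level, and no p is given. The 3 genes nearest Plaur all rose in Cebpg-/- (Tead4 0.61, Timm17a 0.28 and Slc30a1 0.61), whereas of those nearest Serpinb2 only Zfp623 passed (0.23), by limma over genes. Of those nearest Plat only Nfil3 passed (-0.64), of those nearest Serpinf1 only Tmem263 (-0.66), and of those nearest Plau none. Above the dim level 18.3% of all genes passed.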

How the data were processed

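The authors deposited 1 log2 expression value per probe set and array, which RMA produced, per the submitters' processing notes. No version, setting or genome build is stated there. RMA normally brings arrays to 1 distribution and shrinks differences at the low end, so a dim gene may have changed more than its values show. Array medians ran from 2.70 to 2.76, and values from 0.53 to 13.05.

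Of 45101 probe sets 64 controls were left out. The platform annotation names 1 gene for 34945, several for 932 and none for 9160. By Entrez number 34741 took the symbol of a RefSeq table (GRCm38.p6). The test was limma 3.58.1 (R 4.3.3; lmFit, eBayes, genotype only) over 45037 probe sets, and p-values were adjusted by Benjamini-Hochberg over probe sets for members and over 18193 genes (brightest probe set each) for lists. The fit was tested on simulated data. The members, lists and tests were chosen with earlier results of these data known. Genes named are the members, Cebpg, the called genes of both lists, up to 4 uncalled ones with values, and the 3 most similar genes per member. Uncalled list genes with another probe set that passed are named too, and marker genes were named after their values were seen. A fold is given where both means exceed 2.73. Promoter sequences are from RefSeq, with matches for 3 of 5 members. The alternatives are other scalings, a dim filter (above 2.73 on at least 4 arrays), a variance trend, weights per array, a replicate block, a macrophage marker covariate, a threshold of 0.1, averaging the probe sets of a gene, leaving out each array, and, added after seeing the data, leaving out WT replicate 1 and Cebpg-/- replicate 1 together.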

Additional observations from a re-analysis of the deposited data

Results flagged for a closer look

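In 34 groups of 4 arrays examined, 3 held an array whose gap to the nearest other exceeded Dixon's 95% critical value as a share of the group's range, a limit that chance passes in about 1 of 20 groups. WT replicate 1 had a macrophage marker mean of 3.55, where the other WT arrays lay at 5.25 to 5.46. Cebpg-/- replicate 1 read 11.08 for S100a10, where the others lay at 11.01 to 11.02. WT replicate 3 read 3.87 for Serpinb8, where the others lay at 4.04 to 4.07. None of the 8 member probe sets met the limit in either genotype.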

How the results depend on the processing

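The Serpinb2 call held under all 16 alternatives tried for it, with changes of 2.79 to 3.84 and limma adjusted p of 0.000173 to 0.0303. Plaur kept its call under 15 of 16 (0.47 to 0.57) and the brighter Plat probe set under 14 of 16 (-0.80 to -0.53); the exceptions are those given in the report, and the cause was not tested. Signs turned for values that passed nowhere: with the macrophage covariate Serpinf1 changed by 0.021 and 0.040 at its probe sets, and Plau 1422138_at, 0.16 at its highest without WT replicate 4, by -0.083 without WT replicate 2 and -0.01 without Cebpg-/- replicate 3. With the macrophage covariate 1 member probe set was higher and 0 lower, 3 plasminogen system genes were higher and 0 lower, and 0 other serpins were higher and 0 lower (limma; by an unadjusted p under 0.05 the lower ones were 1, 4 and 1, and 3 other serpins were higher). Without both WT replicate 1 and Cebpg-/- replicate 1, where fewer arrays remain, 0 member probe sets were lower, 3 plasminogen system genes higher and 1 lower, and 0 other serpins higher and 0 lower (unadjusted, 2 member probe sets and 1 other serpin lower and 3 other serpins higher). The plasminogen system genes that were lower numbered 1 after subtracting array medians, 4 with a variance trend and 4 at a threshold of 0.1. At that threshold 2 member probe sets and 2 other serpins were lower. Leaving out 1 array gave 4 to 6 higher and 1 to 4 lower plasminogen system genes, 1 to 3 higher and 1 to 3 lower other serpins, and a difference in the macrophage mean of 1.05 to 2.02. Of all genes 6.61% to 13.8% were called with 1 array left out, against 12.6% with every array. With the replicate number as a block 1 plasminogen system gene and 0 other serpins were lower (3 by an unadjusted p) and no count of member probe sets moved; same-numbered arrays had deviations from their group means correlated at -0.27 to 0.13, so the numbers are not taken as pairs. The signal over background of each probe set was not analysed here.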
